A study of Mus musculus with 36 samples.

Results

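Of the 12 newborn brain libraries of a Chd8 mutant series, 11 fell into 2 kinds by the genes of brain regions they held, and these 11 of the 36 libraries of the series are described here. Among the libraries of postnatal day 0 (P0), those with a normalized value of at least 400 for Emx1, a homeobox gene of the developing cerebral cortex, were called forebrain-like, and those with at least 400 for En2, a homeobox gene of the midbrain and anterior hindbrain, were called midbrain-hindbrain-like. The forebrain-like libraries were P0-M-WT2, P0-M-WT3, P0-F-HT2, P0-F-WT1 and P0-F-WT3 (n = 5), where M and F give the sex and WT and HT the genotype. The midbrain-hindbrain-like libraries were P0-M-HT1, P0-M-HT2, P0-M-HT3, P0-F-HT1, P0-F-HT3 and P0-F-WT2 (n = 6). P0-M-WT1 met neither condition and is shown beside them.

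The study sequenced RNA from C57BL/6 mice that were wild-type (WT) or heterozygous for a truncating S62X mutation of the chromatin remodeler gene Chd8 (Chd8+/S62X, HT), in males and females at P0, P25 and P80, with 3 mice in each of 12 groups. The mutation is in the germ line, so all cells of an HT mouse carry it, and no group received a treatment. The labels give whole brain as the tissue of all 36 libraries. Values are estimated counts that the authors normalized, and a difference is given as log2(value + 1), forebrain-like minus midbrain-hindbrain-like, with the standard deviation (SD) over the libraries of each class.

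As background, the vertebrate brain is laid out along its long axis by transcription factors that stay active in the region they mark. Emx1 and Tbr1 mark the pallium that forms the cortex, and Dlx genes and Lhx8 the subpallium that forms the striatum and its interneurons. En1, En2 and Pax2 mark the border of midbrain and hindbrain. Hox genes mark the hindbrain and spinal cord in an order that follows their paralogue numbers. Neurons that make noradrenaline, serotonin and most of those that release glycine lie behind the forebrain, so a complete brain holds the genes of all these regions at the same time.

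The values that chose the classes left a gap around the limit of 400. Emx1 (chr6:85187438-85204462, GRCm38) was at 675 in P0-M-WT2, 650 in P0-M-WT3, 644 in P0-F-HT2, 505 in P0-F-WT1 and 493 in P0-F-WT3, and the highest value outside the forebrain-like class was 44.4 in P0-F-HT1. En2 (chr5:28165694-28172166) ranged from 701 in P0-F-HT1 to 2201 in P0-M-HT1, and the highest value outside the midbrain-hindbrain-like class was 75.1 in P0-M-WT1. The rule itself keeps every value inside a class above those outside it. No P0 library met both conditions. All 24 older libraries held both genes at once, though few of them met the Emx1 condition. Emx1 was at 317 to 433 at P25 and 246 to 382 at P80, and reached 400 in P25-M-HT3 and P25-M-WT3 only. En2 was at 1063 to 1323 at P25 and 828 to 1016 at P80. The plot of both genes shows the 3 positions. Emx1 and En2 were left out of the counts between the classes and of the lists, and remain among the genes fitted for genotype and sex.

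**Figure D1:**
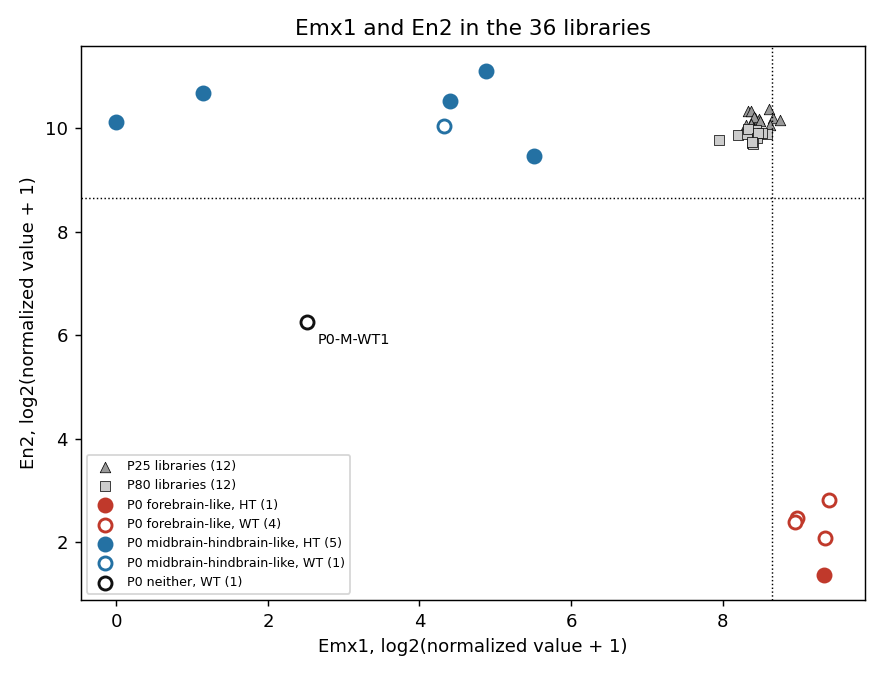
Each point is a library, with log2(normalized value + 1) of Emx1 on the x axis and of En2 on the y axis, filled circles for HT and open circles for WT at P0, and dotted lines at a value of 400. The P0 libraries sit in opposite corners with P0-M-WT1 apart from both, and the 24 P25 and P80 libraries have both genes.

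Genotype was not used to choose the classes. The forebrain-like class held 1 HT and 4 WT libraries, and the midbrain-hindbrain-like class 5 HT and 1 WT libraries (Fisher exact test, two-sided, p = 0.0801, n = 11 libraries, with P0-M-WT1 left out by the rule), which does not pass 0.05. The sexes were close to even, with 2 males and 3 females in the first class and 3 males and 3 females in the second. Among these 11 libraries, only P0-F-HT2 and P0-F-WT2 stood on the other side from the rest of their genotype. Class and genotype can hardly be told apart in them. P0-M-WT1, a WT library outside both classes, was nearer to the midbrain-hindbrain-like class for most genes that parted the classes, as given below. The labelled sex matched Xist and the Y-linked genes in all 12 P0 libraries: Xist was at 82908 to 120928 in the females and 25.7 to 159 in the males.

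The libraries were alike in size. The summed normalized values were 32717163 to 38154000 in the forebrain-like and 31872449 to 35813310 in the midbrain-hindbrain-like libraries, and they are already normalized, so they are not read depths. The methods state an average depth over the series, but none for each library. Genes encoded in the mitochondrial genome took 2.77% to 4.46% of the summed values in the forebrain-like libraries and 3.61% to 6.52% in the midbrain-hindbrain-like libraries. In a principal component analysis of 18338 genes, the first component held 52.7% of the variance and parted the classes, with 46.8 to 84.7 in the forebrain-like and -56.3 to -40.0 in the midbrain-hindbrain-like libraries. The second held 10.2% and cut across them, with the highest values in P0-M-HT3 (64.5), P0-F-HT2 (33.3) and P0-F-WT1 (20.2). Its lowest values were in P0-F-WT3 (-32.5) and P0-M-WT3 (-17.6), which were kept in the alternative below. P0-M-HT3, P0-F-HT2 and P0-F-WT1 also had the lowest mitochondrial shares at P0 (3.61%, 2.77% and 3.24%). Without them the classes did not overlap in this share, at 4.02% to 4.46% and 5.01% to 6.52%. Counts without these 3 libraries are given beside those for class, genotype and sex at P0, as an alternative chosen after the data were seen.

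Of 18294 genes whose mean over the 11 libraries reached 10, 494 were at least 1 log2 unit higher in the forebrain-like libraries with no overlap between the classes, which is 2.7% of the genes compared, and 899 were higher in the midbrain-hindbrain-like libraries, which is 4.91%. Any difference without overlap was found for 4389 genes, which is 24% of them. No p-value is given, because the same libraries that make up the contrast were chosen by their values, and these percentages describe the contrast that the choice was made on. The shares of 2.7% and 4.91% are the ones to set beside the counts of called genes in each list below. The median difference of all genes was 0.02. The larger differences were with the midbrain-hindbrain-like class: 92 genes were at least 4 log2 units higher there, and 37 in the forebrain-like class.

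Since a call needs classes without overlap, the sign of the 1393 called genes is the same in each sex and genotype by construction. Of these, 1042 differed by at least 1 log2 unit both among the HT libraries, where P0-F-HT2 alone is forebrain-like, and among the WT libraries, where P0-F-WT2 alone is midbrain-hindbrain-like. Without P0-M-HT3, P0-F-HT2 and P0-F-WT1, the counts were 569 and 1016. The median SD over all genes was 0.21 in the forebrain-like and 0.23 in the midbrain-hindbrain-like libraries. For the genes called higher in a class, the median SD in that class was 0.27 and 0.32.

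**Figure D2:**
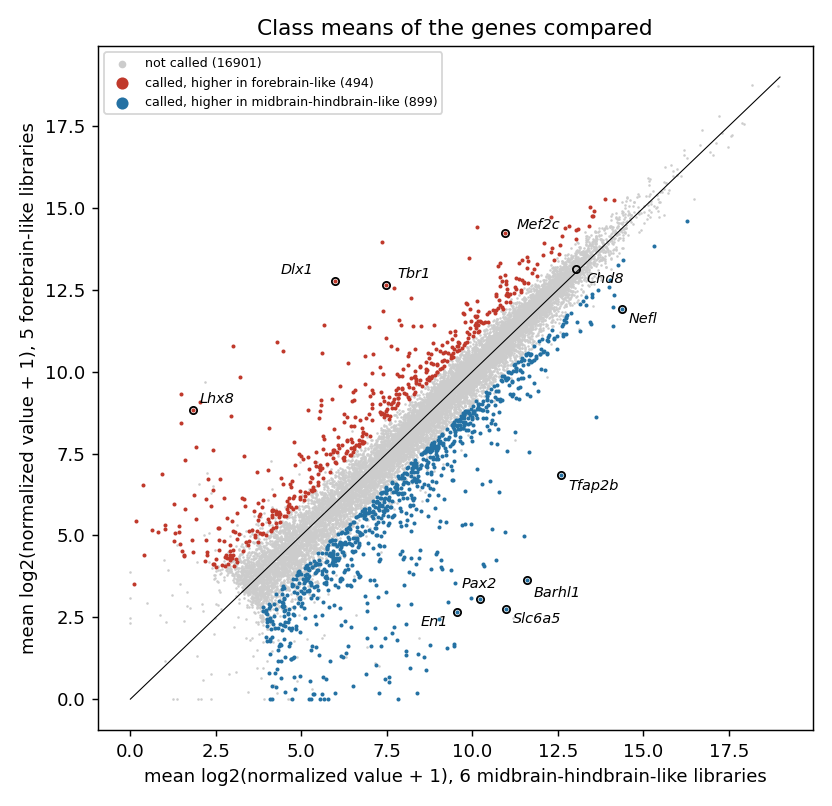
Each point is a gene, with its mean log2(normalized value + 1) over the 6 midbrain-hindbrain-like libraries on the x axis and over the 5 forebrain-like libraries on the y axis, and the line marks equal means. Called genes are coloured, 494 in red and 899 in blue, and genes named in the text are circled, with Chd8 close to the line.

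Genes of the pallium were higher in the forebrain-like libraries in 11 of the 14 listed and measured, with a median difference of 2.51, and none was called in the other direction. Tbr1, a T-box factor of deep cortical layers, was at 6871 in P0-M-WT2, 7742 in P0-M-WT3, 5307 in P0-F-HT2, 6943 in P0-F-WT1 and 5672 in P0-F-WT3. In the midbrain-hindbrain-like libraries its lowest value was 97.2 in P0-M-HT3, the median 163 and the highest 502 in P0-F-HT1. The classes did not overlap, and the difference was 5.17 (SD 0.22 and 0.86). Slc17a7, the vesicular glutamate transporter of cortical neurons, was at 1772 to 4778 against 145 to 463. Both gaps were wider than the spread within either class.

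The remaining pallial genes are also made elsewhere. Eomes, which marks intermediate progenitors of the cortex and a group of cerebellar cells, was at 580 to 1293 in the forebrain-like and 391 to 1489 in the midbrain-hindbrain-like libraries, and the classes overlapped. Emx2 overlapped as well, with 371 to 700 against 20.7 to 600. Cux2, of upper cortical layers, was higher in the forebrain-like class without overlap, but by 0.76, which is below the limit of 1.

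The subpallium gave the larger forebrain difference, with 16 of 18 genes called and a median of 4.41. Dlx1, a homeobox factor of the ganglionic eminences and their GABA neurons, was at 6904 in P0-M-WT2, 8252 in P0-M-WT3, 5659 in P0-F-HT2, 7697 in P0-F-WT1 and 6894 in P0-F-WT3, against 10.04 in P0-M-HT3 at the lowest, a median of 62.5 and 646 in P0-F-HT1 at the highest. Its difference was 6.79 (SD 0.21 and 2.27). Lhx8 and Nkx2-1, which pattern the medial ganglionic eminence, were at 337 to 642 and 239 to 453 in the forebrain-like libraries and at no more than 14.6 and 14.5 in the others. Ppp1r1b (DARPP-32), a phosphatase inhibitor of striatal projection neurons, was at 1917 to 3877 against 66.1 to 290. P0-F-HT1 was the highest of the midbrain-hindbrain-like libraries for Tbr1 and Dlx1, and P0-M-HT3 the lowest. Drd2 and Six3 were the uncalled members, with 341 to 624 against 255 to 414 and 546 to 1084 against 73.7 to 683, and both overlapped.

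Behind the forebrain, 6 of 8 genes of the midbrain-hindbrain organizer other than En2 were higher in the midbrain-hindbrain-like libraries, with a median difference of -6.27. En1, the partner of En2, was at 2.95 in P0-M-WT2, 6.19 in P0-M-WT3, 4.08 in P0-F-HT2, 4.66 in P0-F-WT1 and 11.9 in P0-F-WT3. Its values in the other class were 450 at the lowest, 906 at the median and 1074 at the highest, so the classes were far apart, with a difference of -6.88 (SD 0.65 and 0.56). Pax2, a paired-box factor of the border and of inhibitory hindbrain neurons, was at 3.98 to 11.1 against 671 to 2090. These defining genes were near 0 in 5 libraries that the labels call whole brain. Fgf8 and Fgf17, the signals of the organizer at earlier stages, were low in the 11 libraries, at no more than 8.57 and 36.5. Fgf8 was below the filter on low values and Fgf17 was not called.

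Of 15 midbrain genes, 10 were higher in the midbrain-hindbrain-like libraries. Barhl1, a homeobox factor of the mammillary region, the superior colliculus and cerebellar granule cells, was at 4.80 to 39.2 against 1907 to 4006, a difference of -7.97 (SD 1.05 and 0.39). Pou4f2, a POU factor of the midbrain roof, was at 0.839 to 4.23 against 236 to 1227, and Tfap2b, an AP-2 factor of midbrain and hindbrain interneurons, at 73.7 to 152 against 2864 to 10511. Nr4a2 and Helt were listed for the midbrain but were higher in the forebrain-like class, with Nr4a2, a nuclear receptor of dopamine neurons that cortical neurons also make, at 1287 to 1950 against 300 to 686. Helt was at 19.2 to 46.5 against 1.64 to 4.60.

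Dopamine neuron genes split the midbrain-hindbrain-like libraries among themselves. Slc6a3, the dopamine transporter, was at 380 in P0-M-HT2 and 337 in P0-F-WT2, and at 22.1 to 54.4 in the other 4 libraries of the class. The forebrain-like libraries were at 13.3 to 34.7, so the classes overlapped and the gene was not called. Th, the rate-limiting enzyme of dopamine synthesis, was also highest in P0-F-WT2 (396) and P0-M-HT2 (285), while P0-M-WT3, a forebrain-like library, was next with 202. Aldh1a1, an enzyme of ventral midbrain dopamine neurons, was at 691 and 680 in P0-M-HT2 and P0-F-WT2 and at 103 to 198 in the other 4. Th and Slc6a3 were thus not shared evenly within the class.

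Of 16 cerebellar genes, 13 were higher in the midbrain-hindbrain-like libraries, with a median difference of -2.65. Atoh1, the bHLH factor of granule cell precursors, was at no more than 2.14 in the forebrain-like libraries and listed at 0 in 3 of them, against 66.9 in P0-F-WT2 at the lowest, a median of 216 and 274 in P0-M-HT1 at the highest. Pcp2 and Car8, both of Purkinje cells, were at 4.19 to 9.50 against 126 to 612 and at 256 to 332 against 1113 to 3650. P0-F-WT2 was the lowest of its class for all 3 genes. Gabra6, which granule cells switch on after birth, was at no more than 14.6 in the 11 libraries and below the filter on low values, against 2734 to 4243 in the older libraries. Cbln3, another gene of mature granule cells, was not called, at 52.5 to 98.8 in the 11 libraries and 7244 to 8989 in the older ones.

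Hox genes of paralogue groups 1 to 5 were listed at or near 0 in the forebrain-like libraries and varied widely within the other class. Of 13 measured, 9 were higher in the midbrain-hindbrain-like libraries, with a median difference of -6.09. Hoxb3, a factor of the caudal hindbrain, was at no more than 1.56 in the forebrain-like libraries and at 44.7 in P0-M-HT1, 114 in P0-M-HT2, 1279 in P0-M-HT3, 1370 in P0-F-HT1, 874 in P0-F-HT3 and 518 in P0-F-WT2. Hoxb5 was at 0.907, 13.3, 1933, 2795, 270 and 322 in the same order, and the first of these values lay within the forebrain-like range of 0 to 3.0. Hoxa5, Hoxc4 and Hoxd4 also overlapped and were not called, with P0-M-HT1 within the forebrain-like range for each.

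The highest paralogue number with a clear value also differed between libraries. Hoxb8, of the spinal cord, was at 681 in P0-F-HT1, 41.8 in P0-M-HT3 and no more than 1.52 in the other 4 midbrain-hindbrain-like libraries. Hoxb9 was at no more than 2.62 in all of the P0 libraries. The summed value of paralogues 1 to 5 was 170 in P0-M-HT1, 397 in P0-M-HT2, 2696 in P0-F-WT2, 3942 in P0-F-HT3, 9631 in P0-M-HT3 and 12161 in P0-F-HT1, and 6.78 to 25.1 in the forebrain-like libraries. The 24 older libraries were at 83.1 to 782. Of the genes of paralogues 6 to 13, 10 of 24 listed were in the table and the others were not analysed here.

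**Figure D3:**
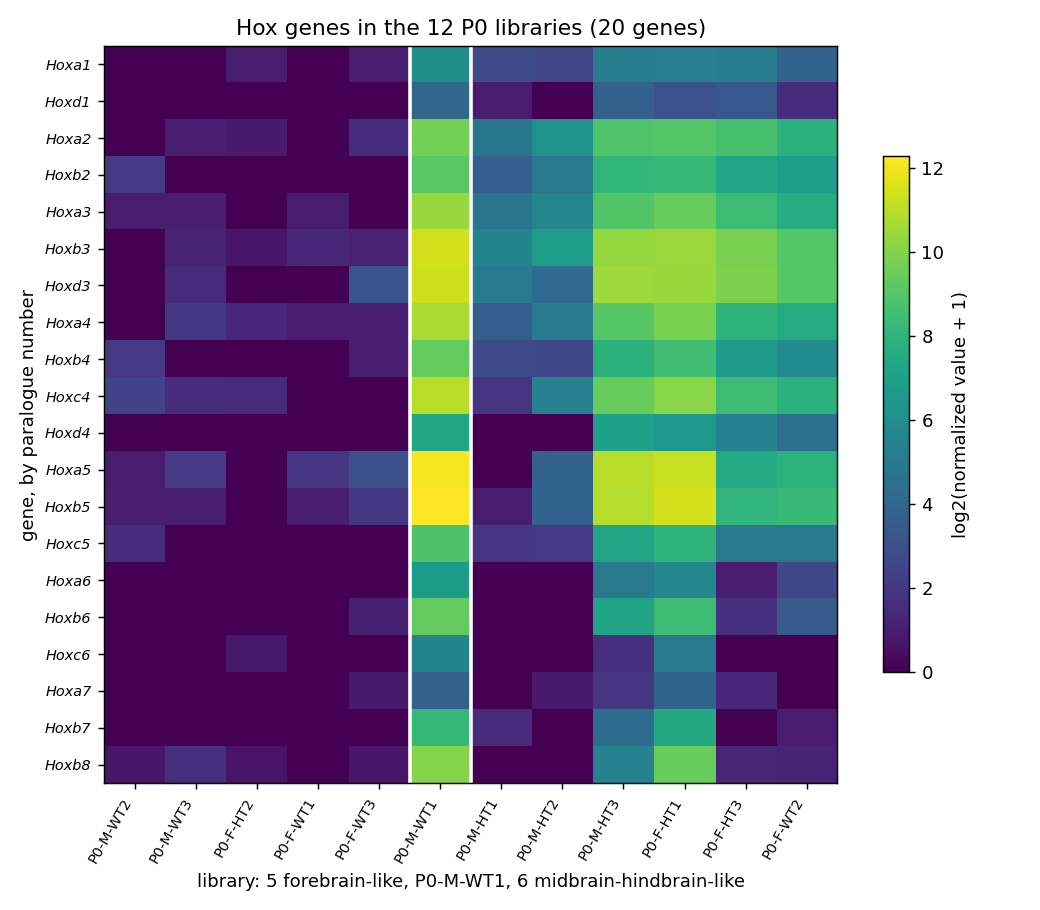
Rows are the 20 Hox genes with a value of at least 10 in any P0 library, ordered by paralogue number, columns are the 12 P0 libraries, and the colour is log2(normalized value + 1). The 5 forebrain-like columns on the left are dark throughout, P0-M-WT1 is the brightest, and the midbrain-hindbrain-like columns differ, with P0-M-HT1 and P0-M-HT2 dim and P0-M-HT3 and P0-F-HT1 bright.

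Transmitter systems of the brain stem followed the class. All 4 noradrenergic genes were higher in the midbrain-hindbrain-like libraries, with a median of -7.43: Dbh, which makes noradrenaline, was at 1.05 to 2.24 against 280 to 380, and Slc6a2, the noradrenaline transporter, at 0 to 6.42 against 561 to 820. The list mean ran from 7.21 in P0-M-HT1 to 8.42 in P0-F-HT3 within the midbrain-hindbrain-like class, while the SD of Dbh there was 0.17. Of 7 serotonergic genes 6 were called: Tph2, which makes serotonin in neurons, was at 10.6 to 17.8 against 148 to 470, and Fev, a factor of these neurons, at no more than 0.835 against 36.5 to 96.6. Slc6a5, the glycine transporter of inhibitory neurons of hindbrain and spinal cord, had the largest difference of its list, -8.21 (SD 0.70 and 1.29). It was at 5.31 in P0-M-WT2, 6.78 in P0-M-WT3, 7.03 in P0-F-HT2, 2.13 in P0-F-WT1 and 10.8 in P0-F-WT3, and at 571 to 4337 with a median of 2985 in the other class, where P0-M-HT1 and P0-M-HT2 were the lowest.

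Of 14 transcription factors of hindbrain interneurons, 11 were higher in the midbrain-hindbrain-like libraries. Evx2 was listed at 0 in all 5 forebrain-like libraries and at 193 to 251 in the others, and Pax3, of dorsal progenitors, was at 0 to 8.67 against 428 to 877. Motor neuron genes were less uniform, with 4 of 7 called there and Isl1, a LIM factor that striatal neurons also use, called in the forebrain-like class (778 to 1478 against 60.3 to 311). Among glutamate transporters, Slc17a6, of subcortical neurons, was at 1859 to 3151 against 5967 to 7676, opposite to Slc17a7. Gad1, shared by all GABA neurons, differed by 0.09 and overlapped. Several of these genes stand in more than 1 list, so the lists are not independent of each other.

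Promoter sequence is shown for the called list genes with the largest difference in each direction whose 250 bases before the RefSeq gene start (GRCm38.p6) hold 1 of 2 motifs and overlap no annotated exon. The motifs searched on both strands were TAATTA, a homeodomain core, and CAGATG, an E-box read as CATCTG on the other strand. The sequences run 5′ to 3′ on the strand of the gene with the motif in capitals. Slc6a5 (chr7:49911450-49911699, plus strand) and Hoxb4 (chr11:96318017-96318266, plus strand) were higher in the midbrain-hindbrain-like, and Mef2c (chr13:83573357-83573606, plus strand) and Nfe2l3 (chr6:51432419-51432668, plus strand) in the forebrain-like libraries. The RefSeq start of Mef2c lies 69573 bases and that of Slc6a5 1554 bases inside the gene as GENCODE annotates it, so these windows are not upstream of the first GENCODE start.
Slc6a5: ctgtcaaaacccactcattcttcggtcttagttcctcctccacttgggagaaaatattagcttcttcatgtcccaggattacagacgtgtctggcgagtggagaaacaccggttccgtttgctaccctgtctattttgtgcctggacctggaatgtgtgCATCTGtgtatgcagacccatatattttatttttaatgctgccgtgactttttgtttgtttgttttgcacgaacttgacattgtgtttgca
Hoxb4: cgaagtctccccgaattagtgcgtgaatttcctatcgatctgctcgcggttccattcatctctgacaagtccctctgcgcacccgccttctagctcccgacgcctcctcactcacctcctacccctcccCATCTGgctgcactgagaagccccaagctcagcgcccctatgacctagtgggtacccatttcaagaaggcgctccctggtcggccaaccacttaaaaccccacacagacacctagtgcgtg
Mef2c: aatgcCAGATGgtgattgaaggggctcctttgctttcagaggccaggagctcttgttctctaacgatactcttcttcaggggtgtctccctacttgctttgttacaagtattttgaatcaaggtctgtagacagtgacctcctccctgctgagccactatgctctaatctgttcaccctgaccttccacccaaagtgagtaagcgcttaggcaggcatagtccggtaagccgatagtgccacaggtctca
Nfe2l3: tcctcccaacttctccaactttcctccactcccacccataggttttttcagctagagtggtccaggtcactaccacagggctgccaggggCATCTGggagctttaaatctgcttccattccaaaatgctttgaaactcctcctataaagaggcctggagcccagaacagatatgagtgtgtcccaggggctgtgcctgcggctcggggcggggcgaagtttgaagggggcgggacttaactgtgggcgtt

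Each of the 4 windows held 1 E-box and no TAATTA. A motif was counted for a gene symbol if any of its promoter entries held it. The E-box was found for 16.3% of the 27025 symbols with an entry and 12.7% of the 12720 genes compared that had one. Among called genes with an entry, it was found for 13.0% of the 307 forebrain-like and 15.4% of the 644 midbrain-hindbrain-like genes. TAATTA was in 5.65%, 3.33%, 3.91% and 6.83% of the same sets. A match describes the letters only. Of 119 distinct called genes of the lists, 85 had an entry.

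Of 10 genes of the thalamus and habenula, 6 were higher in the midbrain-hindbrain-like libraries and none in the others, with a median difference of -2.48. The list means did not overlap, at 4.81 to 7.77 in the forebrain-like and 8.29 to 9.42 in the midbrain-hindbrain-like libraries, but single genes did. Tcf7l2, the Wnt effector that marks thalamic neurons, was at 556 in P0-M-WT2, 284 in P0-M-WT3, 1570 in P0-F-HT2, 297 in P0-F-WT1 and 8359 in P0-F-WT3, and at 563 in P0-F-HT1 at the lowest, a median of 7752 and 13550 in P0-F-WT2 at the highest. P0-F-WT3 and P0-F-HT2 therefore lay inside the midbrain-hindbrain-like range. The lowest value of the midbrain-hindbrain-like libraries, in P0-F-HT1, and their median both lay inside the forebrain-like range. Lhx9, of thalamus and midbrain, showed P0-F-WT3 and P0-F-HT1 between the rest, with 1149 in P0-F-WT3 and 714 in P0-F-HT1.

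The hypothalamus was uneven among the forebrain-like libraries. Otp, a homeobox factor of neuroendocrine neurons, was at 157 in P0-M-WT2, 6.07 in P0-M-WT3, 104 in P0-F-HT2, 0.873 in P0-F-WT1 and 446 in P0-F-WT3, and at 544 to 1385 in the other class. Avp, the vasopressin gene, was at 73.0, 74.5 and 119 in P0-M-WT2, P0-F-HT2 and P0-F-WT3, and listed at 0 in the other 9 P0 libraries. Pmch, the melanin-concentrating hormone gene of the lateral hypothalamus, was at 165 in P0-F-WT3, 17.8 in P0-F-HT2 and at most 3.12 elsewhere at P0. All older libraries had both peptides, at 166 or more and 429 or more. The hypothalamic list had a median difference of -0.24 (0.10 with no filter on low values), with 1 gene called for the forebrain-like and 2 for the midbrain-hindbrain-like class among 11 measured.

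**Figure D4:**
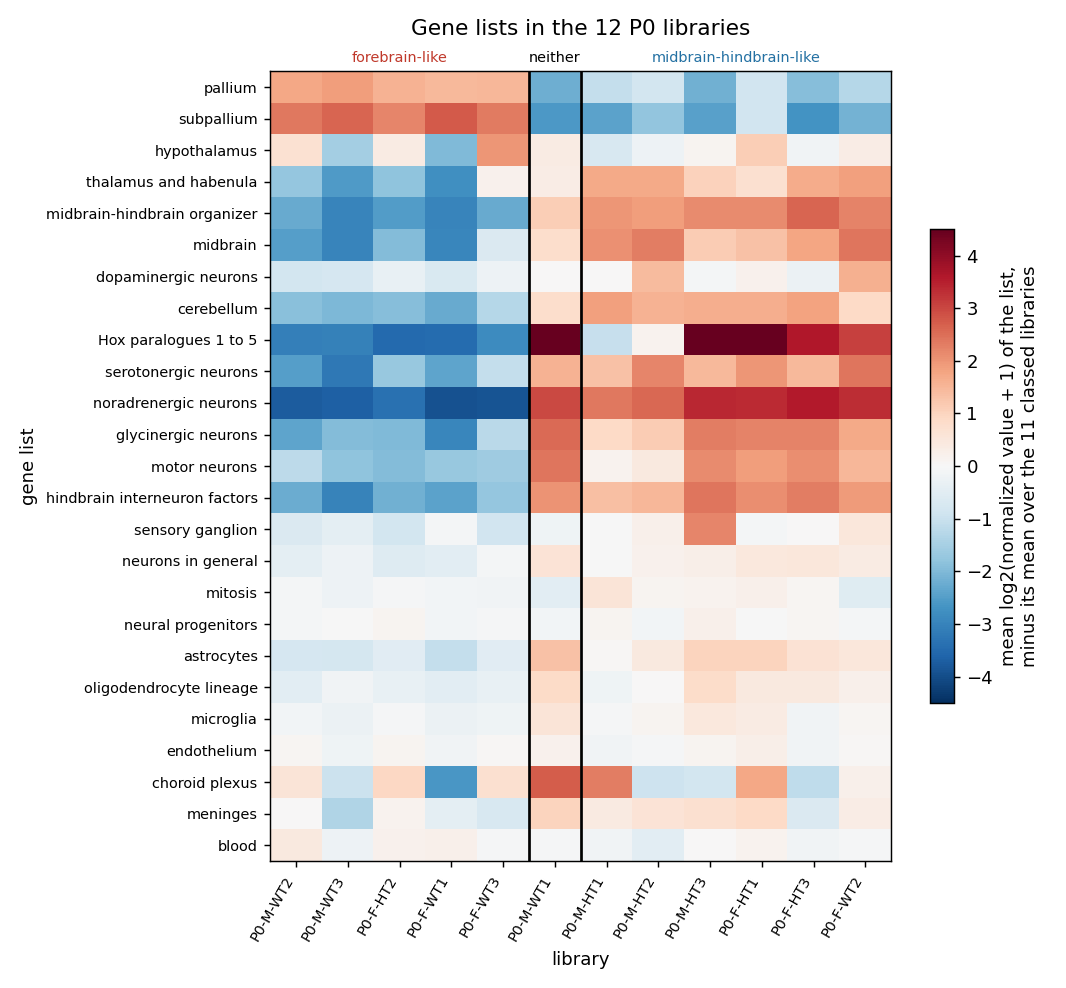
Rows are gene lists, columns the 12 P0 libraries, and the colour is the list's mean log2(normalized value + 1) minus its mean over the 11 classed libraries. Pallium and subpallium are red in the forebrain-like columns and the brain stem lists in the midbrain-hindbrain-like columns, except the Hox list in P0-M-HT1 and the dopaminergic list in P0-M-HT3 and P0-F-HT3, which were below their means, and mitosis, progenitors, microglia, endothelium and blood are close to white in all.

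Some lists of cell types that occur in every brain region held no called gene. With 2.7% and 4.91% of all genes called, a list this short without a call is no result about its cell type. None of 11 mitosis genes was called, and Mki67 was at 2625 to 3120 in the forebrain-like and 2445 to 5566 in the midbrain-hindbrain-like libraries. No gene of the progenitor, microglia, endothelium, meninges or blood lists was called either, with medians of -0.16, -0.43, -0.07, -0.86 and 0.17, of which the progenitor median was 0.05 in females alone and the endothelium median 0.00121 in HT libraries alone. Col1a1, a fibroblast collagen of the meninges list, was at 902 to 3299 against 2190 to 7157 and overlapped. In these bulk samples, fewer cells of a type and less RNA per cell cannot be told apart.

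Among neuronal genes the neurofilaments stood out. Nefl, Nefm and Nefh, which build the axon skeleton of large projection neurons, were higher in the midbrain-hindbrain-like libraries, with differences of -2.45, -2.71 and -3.44, and Nefl was at 3063 to 6719 against 13972 to 27536. No other gene of the 12 in the list was called. Tubb3 and Dcx, of young neurons, were without overlap but differed by 0.64 and 0.70 only, toward the forebrain-like class. Neuronal content was thus present in both classes, with Map2 at 48261 to 64374 and 42923 to 57705.

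Glial genes were higher in the midbrain-hindbrain-like class, in 5 of 10 astrocyte and 2 of 10 oligodendrocyte genes. Aqp4, the water channel of astrocyte end-feet, was at 592 in P0-M-WT2, 722 in P0-M-WT3, 697 in P0-F-HT2, 569 in P0-F-WT1 and 885 in P0-F-WT3, against 2238 to 5546 with a median of 4089, a difference of -2.50 (SD 0.25 and 0.48). Mbp, the myelin basic protein, was at 630 to 732 against 817 to 3173, and Mag, a myelin glycoprotein, at 9.43 to 40.5 against 55.8 to 239. P0-M-HT1 and P0-M-HT2 were the lowest of their class for all 3. Slc1a3 and Pdgfra, which mark astroglia and oligodendrocyte precursors at large, were also without overlap but had differences of -0.67 and -0.69 only.

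Choroid plexus varied between libraries regardless of class. Ttr, the thyroid hormone carrier that this tissue secretes, was at 15543 in P0-M-WT2, 5974 in P0-M-WT3, 19816 in P0-F-HT2, 38.1 in P0-F-WT1 and 15908 in P0-F-WT3, and at 226 in P0-M-HT2 at the lowest, a median of 2366 and 50235 in P0-M-HT1 at the highest. The classes overlapped over almost the whole range, and only Otx2 of the 12 genes was called. Otx2 also marks the midbrain.

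Of the genes linked to autism risk in people, a hand-written list of 32, 6 were called in the forebrain-like and none in the midbrain-hindbrain-like class. The median difference was 0.23, and of all genes compared, 2.7% and 4.91% were called in these directions. Mef2c, a MADS-box factor of cortical neurons, was at 20482 in P0-M-WT2, 24242 in P0-M-WT3, 17082 in P0-F-HT2, 17230 in P0-F-WT1 and 18136 in P0-F-WT3, and at 1465 to 2676 with a median of 1958 in the other class, a difference of 3.27 (SD 0.21 and 0.35). Tbr1 is in this list too. Foxp1, of striatum and cortex, was at 7235 to 15413 against 2137 to 3685, Bcl11a at 8280 to 11193 against 2507 to 3364 and Tcf4 at 16474 to 24688 against 5912 to 10427. The summed value of the list was 252453 to 310978 in the forebrain-like and 171512 to 214711 in the midbrain-hindbrain-like libraries. The other 26 genes, among them Adnp, Chd2, Nlgn3 and Setd5 with differences under 0.1 in size, were not called.

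Outside the lists, the genes with the largest differences among those with a mean of at least 100 were chosen for that size. Their directions therefore add no support to the lists. In the forebrain-like class these included Dlx6os1, a non-coding RNA beside the Dlx5 and Dlx6 genes, at 1356 to 2184 against 0.832 to 90.8, Dlx1as, 9130024F11Rik, Mpped1, Kcnj4, Sla, Tiam2, Mlip and Chrm1, a muscarinic receptor. The libraries do not keep the strand, so Dlx6os1 and Dlx1as cannot be told apart from the genes they overlap where they overlap. In the midbrain-hindbrain-like class they were Sms-ps, Irx5, Mab21l2, Shox2, Sncg, Irx2, C1ql4, A930017K11Rik, Tfap2a and C130021I20Rik. Shox2, a homeobox factor, was at 2.06 to 227 against 870 to 2330, and Irx2, an Iroquois factor, at 3.85 to 124 against 908 to 1515. Sms-ps is a pseudogene whose reads may be shared with its parent gene. P0-F-WT3 was the highest forebrain-like library for all 10 of these genes.

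P0-M-WT1, the library outside both classes, was nearer to the midbrain-hindbrain-like mean for 468 of the 494 forebrain-like genes (94.7%) and 844 of the 899 midbrain-hindbrain-like genes (93.9%). Its telencephalic genes were low, with Dlx1 at 40.9, Six3 at 3.22 and a mean log2(value + 1) of 8.01 for the pallium and 4.75 for the subpallium list. The mean of the thalamus and habenula list, 7.91, lay above all 5 forebrain-like libraries and below the 6 others. Among genes of the midbrain-hindbrain border En1 was at 90.5, and the mean of the organizer list without En2, 7.16, lay between the forebrain-like (3.11 to 3.81) and the midbrain-hindbrain-like libraries (7.95 to 8.69). Pax2 at 2765, Slc6a5 at 6560, Hoxb5 at 4949 and Hoxb8 at 1047 were the highest of all P0 libraries. Its Ttr value of 70592 and its Mbp value of 4629 were the highest at P0 as well. On the first component it lay beyond the midbrain-hindbrain-like libraries, at -69.6.

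Chd8 itself (chr14:52198151-52257780) did not follow the class. It was at 9547 in P0-M-WT2, 7839 in P0-M-WT3, 9913 in P0-F-HT2, 9165 in P0-F-WT1 and 8818 in P0-F-WT3, and at 7206 in P0-F-WT2 at the lowest, a median of 8290 and 9696 in P0-F-HT3 at the highest in the midbrain-hindbrain-like libraries. The classes overlapped and differed by 0.12 (SD 0.13 and 0.14). P0-M-WT1 was the lowest P0 library, at 4733. Between genotypes, HT minus WT was 0.21 ± 0.10 (SE) at P0 with sex and class as covariates (limma, unadjusted p = 0.0536, adjusted p = 0.507 over 18296 genes). This Chd8 value was 0.36 with quantile normalization (unadjusted p = 0.00263, adjusted p = 0.627), 0.14 without P0-F-WT2 and 0.06 without class as a covariate, and it did not pass in any of them. At P25 the 6 HT libraries were at 5905 to 6747 and the 6 WT libraries at 3623 to 4707, and at P80 at 4582 to 5149 and 3375 to 3862, so that the genotypes did not overlap at either age. HT minus WT was 0.62 ± 0.05 (adjusted p = 5.22e-05) and 0.42 ± 0.04 (adjusted p = 0.000124) there in limma.

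Genotype at P0 was fitted with and without class as a covariate. With sex and class as covariates, 1 of 18296 genes passed an adjusted p of 0.05 for genotype in limma, which is 0.00547%, and 1802 genes, or 9.85%, had an unadjusted p under 0.05. With sex alone as covariate, no gene passed in the same 11 libraries, and 5085 had an unadjusted p under 0.05. The 494 forebrain-like genes then had a median HT minus WT of -1.004 and the 899 midbrain-hindbrain-like genes 1.05, directions that the choice of these genes and the uneven genotypes of the classes fix, so that they are no result about genotype. With class as a covariate these medians were -0.08 and 0.06, and 201 of 494 and 512 of 899 genes were higher in HT. None of the 1393 genes passed, and 115 of them, or 8.26%, had an unadjusted p under 0.05. Without P0-F-HT2, the share of all genes fell below that of the class genes. Genotype given class then rests on P0-F-WT2 alone. Without P0-M-HT3, P0-F-HT2 and P0-F-WT1, 3 genes passed for genotype, Gm37206, AC121821.3 and Neurod1, named after their values were seen. None was among the 1386 class genes tested, of which 121, or 8.73%, had an unadjusted p under 0.05, against 7.17% of all genes in that fit. No forebrain-like HT library is left there, so genotype given class rests on P0-F-WT2 alone, which is assumed to vary like the others, and Gm37206 was listed at 0 in that library and at 56.9 to 282 in the other 10. The median SE of the genotype difference was 0.17, and 0.25 when P0-F-HT2 or P0-F-WT2 was left out, the libraries that separate genotype from class.

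The gene that passed was Mir124a-1hg (chr14:64587331-64593961, a long non-coding RNA that hosts the neuronal microRNA miR-124). It was at 5493 in P0-F-HT2 and 2031 to 3219 in the 4 WT libraries of the forebrain-like class, and at 1333 in P0-F-WT2 and 2829 to 4280 in the 5 HT libraries of the other. P0-M-WT1, a WT library in neither class and not in the fit, was at 2846, within the range of those 5 HT libraries. HT was higher within each class, by 1.19 ± 0.12 (SE, adjusted p = 0.0111, limma). The call was lost without P0-M-WT2, with a difference of 1.17 (adjusted p = 0.0523, limma). It was also lost without P0-F-HT2 (1.14), P0-F-WT2 (1.23) or P0-M-HT3, P0-F-HT2 and P0-F-WT1 together (1.125). The difference was about as large in these fits. Without class as a covariate the difference was smaller, at 0.65, and did not pass either (adjusted p = 0.115, limma). At P25 and P80 the gene differed by -0.03 and -0.04 and did not pass.

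The next genes by p did not pass. Cxcr4, a chemokine receptor that guides migrating neurons, was 0.99 ± 0.16 higher in HT (adjusted p = 0.332, limma) and Caly, a vesicle protein of neurons, differed by -0.53 ± 0.10 (0.446). Gm42979, Gm38057, Gm37206, Gm8430, Gm38309, Gm43279 and Itfg2 made up the rest of the 5 per direction, with adjusted p of 0.273 to 0.446. None of the 286 list genes tested passed for genotype, and 32, or 11.2%, had an unadjusted p under 0.05, against 9.85% of all genes. The same fit called 8 genes for sex at P0, or 0.0437%: Xist, Eif2s3x and Kdm5c were higher in females, and Ddx3y, Uty, Kdm5d, Eif2s3y and Gm29650 in males, and 284 genes, or 1.55%, had an unadjusted p under 0.05. Of the 1393 genes called between the classes, 33, or 2.37%, had such a p for sex and none passed. Without P0-M-HT3, P0-F-HT2 and P0-F-WT1, 9 genes passed for sex, and 235 of 1386 class genes, or 17%, had an unadjusted p under 0.05, against 1089 of 18290 genes, or 5.95%. Of these 9, 3 were class genes, the neurofilament genes Nefl, Nefm and Nefh. Male minus female was -0.86 ± 0.08 (SE, adjusted p = 0.0124, limma) for Nefl, -0.99 ± 0.12 (0.0342) for Nefm and -1.31 ± 0.13 (0.0124) for Nefh in these 8 libraries. Among them, the males of the midbrain-hindbrain-like class were P0-M-HT1 and P0-M-HT2, with summed Hox values (paralogues 1 to 5) of 170 and 397. The females of that class were at 2696 to 12161, so sex and this regional difference cannot be told apart there. In the 11 libraries the differences were -0.35, -0.37 and -0.60, with an adjusted p of 0.9999 for each.

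In the older libraries, which the rule did not use, the genes that parted the P0 classes were examined for genotype. At P25, 5 of 18146 genes (0.0276%) passed for genotype in limma, and none of the 1234 class genes tested did. At P80, 6 of 18153 (0.0331%) passed, and none of 1236 class genes. Without P80-M-WT replicate 1, 13 genes passed at P80, and 1 of them was a class gene, Rlbp1, a retinaldehyde-binding protein gene named here after its values were seen (0.46 ± 0.06, adjusted p = 0.00637 in limma, against 0.38 and 0.155 with all libraries). An unadjusted p under 0.05 was found for 89 class genes at P25 (7.21%, against 5.95% of all genes) and 114 at P80 (9.22%, against 9.28%). The median HT minus WT was -0.02 for the forebrain-like genes at both ages, and 0.02 at P25 and -0.02 at P80 for the midbrain-hindbrain-like genes. Chd8, Usp11 and Entpd4 passed at both ages in the fits of all libraries.

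**Figure D5:**
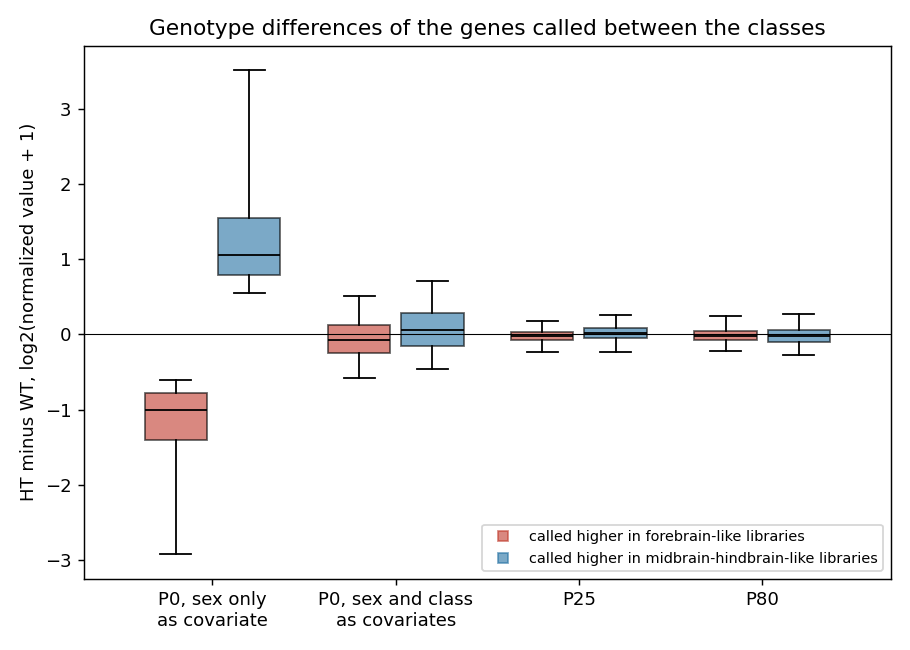
Boxes give the quartiles and medians, and whiskers the 5th to 95th percentiles, of HT minus WT in log2(normalized value + 1) for the 494 forebrain-like and 899 midbrain-hindbrain-like genes (those tested at each age). The boxes lie on opposite sides of 0 at P0 with sex alone as covariate, as the choice of genes fixes, and around 0 with class added and at P25 and P80.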

How the data were processed

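RNA of mouse brains was made into libraries with the TruSeq RNA v2 kit, which does not keep the strand. Per the labels and methods, the authors estimated transcript counts with Salmon 1.1.0 against GRCm38 and normalized them with DESeq2 1.26.0 in R 3.6.2 (versions from the submitters' processing notes; the methods name an earlier version of R). The annotation release is not given in the sources used here. The deposited table holds 29799 genes in 36 libraries as signal values: estimated counts divided by normalization factors. Sums of 31872449 to 38154000 per library are therefore not depths. The methods give an average depth for the series and none for each library, so no counting interval is given. Columns named for day 56 were matched to titles of P80 by group and number, and 0 columns had no sample.

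Values were compared as log2(value + 1) for genes whose mean reached 10. A gene was called between the classes when they did not overlap and differed by at least 1. Genotype and sex were tested in limma 3.58.1 (R 4.3.3) with Benjamini-Hochberg adjustment, with class and the other factor as covariates at P0 and sex at P25 and P80. The class fits leave out P0-M-WT1. Nothing beyond the 3 mice per group separates biological from technical spread, so p-values measure the spread between these samples. The steps were tested on simulated data with 200 changed genes.

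The classes, the 31 hand-written gene lists and the members were chosen with earlier results of these data known. Named genes are list members, the 10 genes outside the lists with the largest difference in each direction at a mean of at least 100, and the 5 with the smallest p for genotype in each direction. Alternatives were pseudocounts of 0.1 and 10, no filter or a mean of at least 100, median-of-ratios and quantile scaling, single sexes or genotypes, no class covariate, a replicate block and each library left out. Gene loci are from GENCODE vM21 (GRCm38) and promoters from RefSeq (GRCm38.p6). A few members of the lists are counted but not reported here by name.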

Additional observations from a re-analysis of the deposited data

Results flagged for a closer look

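Among 73 groups of libraries and values, 7 had a highest or lowest library farther from the rest than Dixon's 95% critical value, and chance alone gives this in about 1 in 20 groups. In the midbrain-hindbrain-like class, the mean log2(value + 1) of the cerebellar list was 8.93 in P0-F-WT2 and 9.60 to 9.89 in the other 5 libraries. The mean of the meninges list was 9.13 in P0-F-HT3 and 10.15 to 10.70 in the others, with Igf2 as its most abundant gene.

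P0-M-HT3 stood apart for a pair of lists. Its mean for genes of sensory ganglia was 6.76, against 4.45 to 5.04 in the other midbrain-hindbrain-like libraries. Its mean for the autism risk list was 11.99, against 12.24 to 12.32.

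Among the P0 males, P0-M-WT2 had the lowest values of 3 Y-linked genes. Ddx3y was at 1102 there and at 1673 to 1987 in the others, Eif2s3y at 234 against 1312 to 2190, and Kdm5d at 1076 against 1512 to 1819. All remained far above the female libraries, and the call of sex from the labels was not affected.

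P0-M-WT1, which is in neither class, had a summed value of 22616 for Hox genes of paralogues 1 to 5, against 6.78 to 25.1 in the forebrain-like and 170 to 12161 in the midbrain-hindbrain-like libraries. The causes of these values were not tested.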

How the results depend on the processing

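The class counts of 494 and 899 genes were within 1.5 times of the reported counts under both pseudocounts, no filter, both scalings and females only. With a mean of at least 100 they were 329 and 536, in males only 808 and 1554, in HT libraries only 1377 higher in the midbrain-hindbrain-like class, and in WT libraries only 839 higher in the forebrain-like class; fewer genes or fewer libraries enter these counts by construction. Leaving out each library gave 469 to 548 and 876 to 1053. Genotype at P0 gave 0 genes without class as a covariate, in 11 and in 12 libraries, and 3 without P0-M-HT3, P0-F-HT2 and P0-F-WT1, a set chosen after seeing the data, where Mir124a-1hg had an adjusted p of 0.251 in limma; the cause was not tested. Leaving out each library gave 0 to 3 genes at P0 (0 without P0-M-WT2, 2 without P0-M-HT2 and 3 without P0-F-WT2), 3 to 6 at P25 and 4 to 13 at P80, with 13 without P80-M-WT replicate 1. Without P0-F-HT2, 1 gene passed, but it was Gm37206, which is listed at 0 in P0-F-WT2, then the lone library that separates genotype from class. The 3 without P0-F-WT2 (Fam205a2, Gm13502 and Gvin1) are listed at 0 in P0-F-HT2, the lone such library there. For sex at P0, 7 to 9 genes passed in the alternatives run. Among single genes, 158 values of 55 genes not called between the classes changed sign, while for called genes the call rule fixes the sign in any subset of the libraries. The medians of lists with few or no called genes did in some alternatives: hypothalamus 0.10 with no filter, neurons in general 0.16 in males, 0.01 without the 3 libraries and 0.02 without P0-F-HT2, neural progenitors 0.05 and sensory ganglia 0.55 in females (-0.35 for all 6 genes, since the filter on low values was applied again in each subset), endothelium 0.00121 and choroid plexus 0.64 in HT libraries, and mitosis 0.36 in WT libraries. Of the values for single lists, 610 stayed within their spread and 43 moved by more, and of those for single genes 6298 and 287, while for genotype at P0 Gm37206 and Gm8430 newly passed in 3 fits in all and Mir124a-1hg no longer passed in 6.

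The replicate numbers were not taken to pair the libraries, since at no age did all 6 pairs of HT and WT libraries with the same number have correlated deviations over 0.1. In P0 females each genotype group mixed both classes, so the deviations from the group means also hold the class difference. The check can therefore neither show nor exclude pairing in those females. The correlations were -0.713 to -0.179 in P0 females, -0.071 to 0.024 in P0 males, 0.140 to 0.289 in P25 males, -0.145 to 0.007 in P25 females, and at P80 they lay from 0.019 to 0.084 for males and from -0.025 to 0.072 for females. With a replicate block, genotype gave 1 gene at P0, 5 at P25 and 7 at P80, and sex 7 at P0. The depth of each single library is not given in the sources used here, so low values stand without a counting interval.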

Other observations

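Of 6 sensory ganglion genes, 2 (Avil and Isl2) were called higher in the midbrain-hindbrain-like class, with a list median of -0.60. In P0-M-HT3, Scn10a, a sodium channel of pain neurons, was at 279, and the summed value of the list was 997, against 184 to 281 in the other midbrain-hindbrain-like libraries.

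The libraries with the highest values on the second component, P0-M-HT3, P0-F-HT2 and P0-F-WT1, also shared values of a few genes, named after the values were seen. Gm12671 was at 8914, 8132 and 9470 in them, at 3121 in P0-M-WT2 and 1579 in P0-M-WT3, and listed at 0 in the other 7 P0 libraries. Morf4l1-ps1 and Gm7367 were listed at 0 in the same 3 libraries and at 882 to 1947 and 220 to 381 in the rest. Gm28037 was at 10.4, 139 and 1224 in them, against 2977 to 4344. These libraries come from both classes, both genotypes and both sexes, and the cause was not tested.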
